A study of Mus musculus and Homo sapiens with 40 samples.

Results

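The subunits of the transcription factor NF-kB and the inhibitors that it switches on formed a group of 10 mouse genes, of 21738 protein-coding genes in the annotation. They were *Nfkb1*, *Nfkb2*, *Rel*, *Rela* and *Relb*, which encode the subunits, and *Nfkbia*, *Nfkbie*, *Nfkbiz*, *Tnfaip3* and *Bcl3*, which encode feedback inhibitors and related IkB proteins. Genes of this second set are called inhibitor genes below as a label only, since the products of *Nfkbiz* and *Bcl3* are nuclear IkB proteins and that of *Nfkbiz* is a co-activator. The genes were chosen by name. A locus was the gene body with 50 kb on both sides (GENCODE release M39, mm39), and a peak belonged to a locus when its summit lay inside. Of 957454 peaks in the 10 mouse lists, 2238 lay in these loci.

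HPC-7 cells are an immortalised line of hematopoietic progenitors from mouse, and each of the 2 lines used here carried 1 isoform of the myeloid transcription factor CEBPA, fused to ERT2. p42 is the full-length protein and p30 lacks the amino-terminal part. According to the methods of the study, the transgenes were stably transduced and constitutively expressed, endogenous CEBPA was very low, and cells were given hydroxytamoxifen, which moves ERT2 fusions into the nucleus. H3K27ac was profiled in cells of both lines, untreated or given LPS at 100 ng/mL for 2 h, with 3 samples in each group, and H3K4me1 in 2 samples of each untreated line. CEBPA was profiled in 1 sample of each line with anti-CEBPA and in 1 with anti-ER, which recognises the fusion partner. The anti-ER samples were labelled untreated, and the titles of the anti-CEBPA samples name no treatment.

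In resting cells, NF-kB dimers are held in the cytoplasm by IkB proteins. LPS acts through the receptor TLR4 and leads to the destruction of IkB, so that dimers enter the nucleus and bind kB sites. *Nfkbia*, *Nfkbie* and *Tnfaip3* are well-known early targets whose products shut the pathway down again. H3K27ac marks active promoters and enhancers, and H3K4me1 marks enhancers whether or not they are active.

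The replicates of a group had been pooled into 1 list, and the CEBPA lists come from 1 library each. Differences between lists therefore have no replicate check, no test was possible and no p-value is given. Line and isoform cannot be told apart. The H3K27ac lists held 107141 to 142419 peaks, and the p42 list with LPS was the shortest of these 4. The lists do not give the depth of the libraries, for which the study states only a range over all samples. Promoters of 8 of 8 progenitor genes carried an H3K27ac peak in the 4 lists, and those of 8 of 8 genes of other cell types carried none. Ranges in parentheses after a share are 95% intervals by the Wilson method, for counting error alone.

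The promoters were first searched for the NF-kB consensus in the 250 bp upstream of the canonical start. Of the 10 members, 4 held a match, namely *Relb*, *Nfkbia*, *Nfkbie* and *Tnfaip3*. Over all protein-coding genes the share was 4.23%. *Relb* encodes the partner of the p52 subunit. *Nfkbia* encodes IkB alpha and *Nfkbie* IkB epsilon, which both retain NF-kB in the cytoplasm. *Tnfaip3* encodes A20, a ubiquitin-editing enzyme that stops signalling upstream of IkB. The stretches around the 4 matches are shown because their H3K27ac peaks are followed below. They are given 5′ to 3′ on the strand of the gene, read from mm39, with the match in capitals.
*Relb*, chr7:19363426-19363520, match starting 37 bp upstream: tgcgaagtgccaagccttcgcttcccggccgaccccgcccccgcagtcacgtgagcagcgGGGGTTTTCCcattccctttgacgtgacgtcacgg
*Nfkbia*, chr12:55539433-55539521, match starting 29 bp upstream: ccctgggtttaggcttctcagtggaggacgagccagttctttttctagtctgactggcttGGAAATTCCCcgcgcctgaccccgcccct
*Nfkbie*, chr17:45866460-45866584, match starting 86 bp upstream: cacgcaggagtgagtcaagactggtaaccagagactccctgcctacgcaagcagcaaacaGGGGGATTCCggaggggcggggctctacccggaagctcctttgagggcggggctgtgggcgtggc
*Tnfaip3*, chr10:18891214-18891295, match starting 97 bp upstream: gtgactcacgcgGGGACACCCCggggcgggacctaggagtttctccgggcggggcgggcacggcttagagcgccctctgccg

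The same window held the AP-1 letters TGANTCA in *Nfkbie* and *Tnfaip3*, against 6.17% of all promoters. The CEBP letters TTGCNNAA were found in *Nfkb1*, against 9.34% of all promoters. Both strands were searched, and a match is a description of sequence, not of binding.

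With LPS, H3K27ac covered more of the loci of the 5 inhibitor genes in both lines. The length covered is the summed width of the peaks in a locus. In p42 cells it was longer with LPS at 6 of the 10 loci, these 5 and *Nfkb1*, while 16.6% of all protein-coding loci with H3K27ac were longer. In p30 cells it was longer at 8 of 10, against 48.2% of all loci. The exceptions in p30 cells were *Rela* and *Relb*. The median ratio of LPS to untreated length was 1.04 over the members and 0.837 over all loci in p42 cells, and 1.16 and 0.992 in p30 cells.

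**Figure D1:**
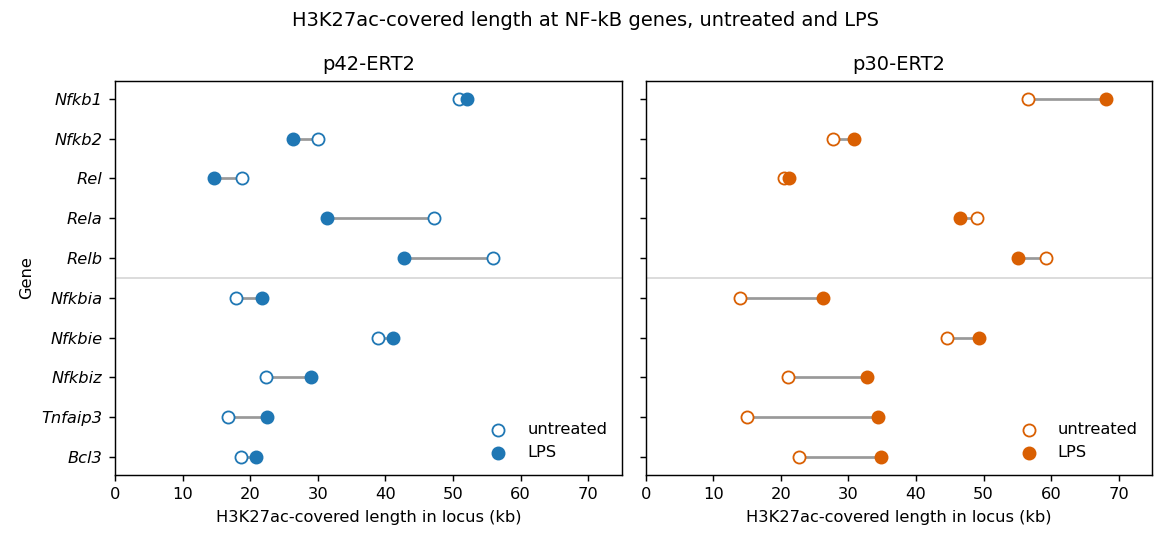
H3K27ac-covered length in kb (horizontal axis) at each locus, untreated (open) and with LPS (filled), in p42 (left) and p30 cells (right); each point is 1 list, so there are no error bars. The filled point lies to the right of the open one at the 5 inhibitor genes, below the grey line, in both lines.

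*Tnfaip3* had the largest ratio of the members in both lines. In p42 cells H3K27ac spanned 16733 bp of its locus before LPS and 22479 bp after. In p30 cells it carried 15056 bp and 34385 bp. These were ratios of 1.34 and 2.28, higher than at 97.6% and 99.3% of all loci. Untreated, p30 cells had the shorter covered length at this gene, and with LPS the longer.

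At *Nfkbia*, p42 cells had 17813 bp in the untreated and 21749 bp in the LPS list, a ratio of 1.22. p30 cells had 13890 bp and 26187 bp, a ratio of 1.89. As at *Tnfaip3*, the p30 list was below the p42 list without LPS and above it with LPS. *Nfkbiz* encodes IkB zeta, a nuclear co-activator of secondary response genes. Its locus covered 22341 bp and 28952 bp in p42 cells (ratio 1.30), and 21009 bp and 32812 bp in p30 cells (ratio 1.56). The order of the lines again differed between the untreated and the LPS lists.

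*Bcl3* encodes a nuclear IkB protein that binds p50 and p52. In p42 cells its locus carried 18585 bp in the untreated and 20805 bp in the LPS list, and 22691 bp and 34843 bp in p30 cells. *Nfkbie* carried 38824 bp and 41086 bp in p42 cells, and 44537 bp and 49363 bp in p30 cells. At both genes the p30 list was the longer with and without LPS. The *Bcl3* ratios were 1.12 and 1.54, and the *Nfkbie* ratios 1.06 and 1.11.

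Among the subunits the pattern was mixed. *Nfkb1*, which encodes p105 and its product p50, carried 50896 bp and 52071 bp in p42 cells, a ratio of 1.02. In p30 cells it carried 56597 bp and 68067 bp, a ratio of 1.20. *Rela* encodes p65, the main activating subunit. It carried 47192 bp and 31293 bp in p42 cells, the smallest ratio of the members at 0.663, and 49065 bp and 46555 bp in p30 cells. *Relb* carried 55865 bp and 42692 bp in p42 cells, and 59192 bp and 55042 bp in p30 cells. At *Rela* and *Relb* the locus was thus shorter with LPS in both lines.

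*Nfkb2*, which encodes p100 and p52, carried 30033 bp in the untreated and 26297 bp in the LPS list of p42 cells, and 27780 bp and 30759 bp in p30 cells. *Rel*, which encodes c-Rel, carried 18734 bp and 14646 bp in p42 cells, and 20410 bp and 21266 bp in p30 cells. Both were shorter with LPS in p42 and longer in p30 cells.

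**Figure D2:**
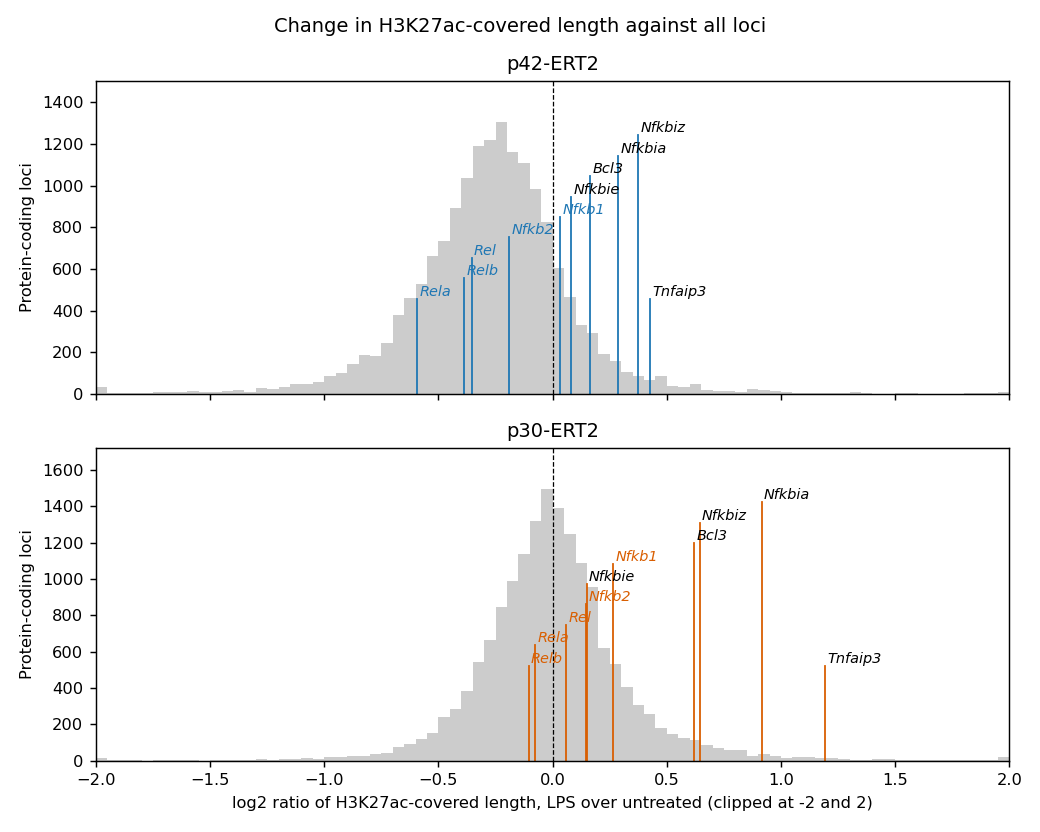
Log2 ratio of H3K27ac-covered length, LPS over untreated (horizontal axis), for all protein-coding loci with H3K27ac in both lists (grey, number of loci; the end bars also hold values beyond the axis) and for the members (lines; their heights only keep the names apart), in p42 (top) and p30 cells (bottom). The inhibitor genes, named in black, lie right of 0 in both panels, and *Tnfaip3* lies farthest right.

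Neighbouring genes contributed to these lengths. In the untreated p42 list, peaks nearest to the member's own start held 4189 of 38824 bp at *Nfkbie* and 6330 of 47192 bp at *Rela*. They held 8711 of 55865 bp at *Relb*, 5653 of 30033 bp at *Nfkb2* and 12123 of 18585 bp at *Bcl3*. At *Nfkbie*, *Rela*, *Relb* and *Nfkb2* the lengths above thus came mostly from peaks nearest to other genes. The starts of 5 other protein-coding genes lay in the *Nfkb2* locus, 5 in the *Rela*, 6 in the *Relb*, 7 in the *Nfkbie* and 4 in the *Bcl3* locus, and 0 in those of *Nfkb1*, *Rel*, *Nfkbia*, *Nfkbiz* and *Tnfaip3*. With peaks kept only where the member had the nearest start, the same 6 genes were longer with LPS in p42 cells, against 24.7% of all loci by this rule. In p30 cells the length at *Rela* was then 6542 bp before and 7948 bp after LPS, and that at *Relb* was 11663 bp and 13330 bp, so that 10 of 10 were longer, against 50.9% of all loci, and the direction at these 2 genes was the opposite of that of the whole locus.

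Of 20 other genes of the pathway, kinases, adaptors and further inhibitors, 2 were longer with LPS in p42 cells and 12 in p30 cells, against 16.6% and 48.2% of all loci. The 2 in p42 cells were *Traf1*, an adaptor of TNF receptors (8761 bp untreated, 12858 bp with LPS), and *Tnip1*, a partner of A20 (65223 bp and 65868 bp). Of the further inhibitors, *Tnip1* was longer with LPS in both lines. *Nfkbid*, *Cyld* and *Tax1bp1* were shorter in p42 and longer in p30 cells. *Nfkbib*, *Tnip2*, *Otulin*, *Zc3h12a* and *Itch* were shorter in both lines, so the direction of the inhibitors among the members was not general. The median ratios of the 20 genes were 0.854 in p42 and 1.05 in p30 cells. Of 14 genes of the AP-1 family and its partners, 5 were longer in p42 and 8 in p30 cells.

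Between the lines, untreated H3K27ac was longer in p30 than in p42 cells at 6 of 10 members, against 56.2% of all loci. The 4 that were longer in p42 cells were *Nfkb2*, *Nfkbia*, *Nfkbiz* and *Tnfaip3*. With LPS, 10 of 10 were longer in p30 cells, against 82.7% of all loci. These comparisons share their lists with the LPS ratios above.

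Promoter peaks were then compared by rank, the place of the best peak at a start of the gene when the list is sorted by p-value, as a percentage of the list (low values are strong). Promoters took in the 1000 bp before any start of the gene and the 100 bp after it. Each of the 10 genes had a promoter H3K27ac peak in each of the 4 lists. Of all 21738 genes, 10905 had one in both lists of p42 cells and 10982 in both lists of p30 cells. Rank was better with LPS at 4 of 10 in p42 cells, against 23.5% of all genes, and at 8 of 10 in p30 cells, against 64.7%. The 4 genes of p42 cells, *Nfkb1*, *Relb*, *Nfkbie* and *Bcl3*, were among the 8 of p30 cells. In p42 cells this percentage depends on the shorter LPS list. With lists of equal length, *Nfkb2* and *Tnfaip3* were better with LPS too, 6 of 10, against 48.9% of all genes, and p30 cells stayed at 8 of 10, against 61.4%. With q-values under 1e-05, *Nfkb2* was added in p42 cells, 5 of 10, against 27.4%.

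*Relb* had the best-ranked promoter of the members with LPS in each line. Its rank was 1.44% untreated and 0.794% with LPS in p42 cells, and 0.861% and 0.166% in p30 cells. The authors' fold enrichment at its summit, not scaled between lists, was 60.8 and 66.7 in p42 cells, and 67.1 and 114 in p30 cells. The *Relb* peak was narrower with LPS, 2301 and 1139 bp in p42 cells and 2291 and 1531 bp in p30 cells.

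At *Nfkb1* the promoter ranked at 2.06% and 1.41% in p42 cells and at 2.00% and 0.583% in p30 cells. *Nfkbie* ranked at 10.8% and 8.15% in p42 cells and at 9.59% and 5.02% in p30 cells. *Bcl3* ranked at 5.44% and 4.89%, and at 4.92% and 3.41%. At these genes the better rank went with LPS in both lines.

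*Tnfaip3* ranked at 3.76% untreated and 4.53% with LPS in p42 cells, but its place in the list was 4859 and 4857 and the percentages differ through the length of the list. In p30 cells it ranked at 4.42% and 1.86%, places 6159 and 2651. Its promoter peak was wider with LPS in both, 1703 and 4065 bp in p42 cells and 2475 and 10423 bp in p30 cells. *Nfkbia* ranked at 3.83% and 7.32% in p42 cells, places 4960 and 7838, and at 5.00% and 4.16% in p30 cells, places 6966 and 5921. Its peak was also wider with LPS in both, 6580 and 8331 bp, and 2676 and 8620 bp. In p42 cells the *Nfkbia* promoter thus had a wider peak of weaker rank with LPS. Over the members, the promoter peak was wider with LPS at 9 of 10 in p42 cells and at 8 of 10 in p30 cells, against 36.4% and 63.0% of all genes.

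*Rela* ranked at 1.77% and 2.22% in p42 cells, and at 1.54% and 1.37% in p30 cells. *Nfkb2* ranked at 1.53% and 1.59% in p42 cells, where its place was better with LPS (1979 and 1705), and at 1.14% and 0.915% in p30 cells. *Rel* had the worse rank with LPS in both lines, 2.33% and 3.13% in p42 cells and 1.95% and 2.03% in p30 cells.

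The best promoter peak of *Nfkbiz* ranked at 0.444% and 0.901% in p42 cells and at 0.464% and 1.33% in p30 cells, also worse with LPS. It did not always lie at the same start. Its summit lay upstream of the canonical start, at another start, in the untreated lists and in the p30 list with LPS, and close downstream of the canonical start in the p42 list with LPS. At the canonical start alone the ranks were 0.752% and 0.901% in p42 cells, and 1.19% and 1.51% in p30 cells. The place of this peak was 973 and 965 in p42 cells, nearly equal, and 1656 and 2153 in p30 cells.

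**Figure D3:**
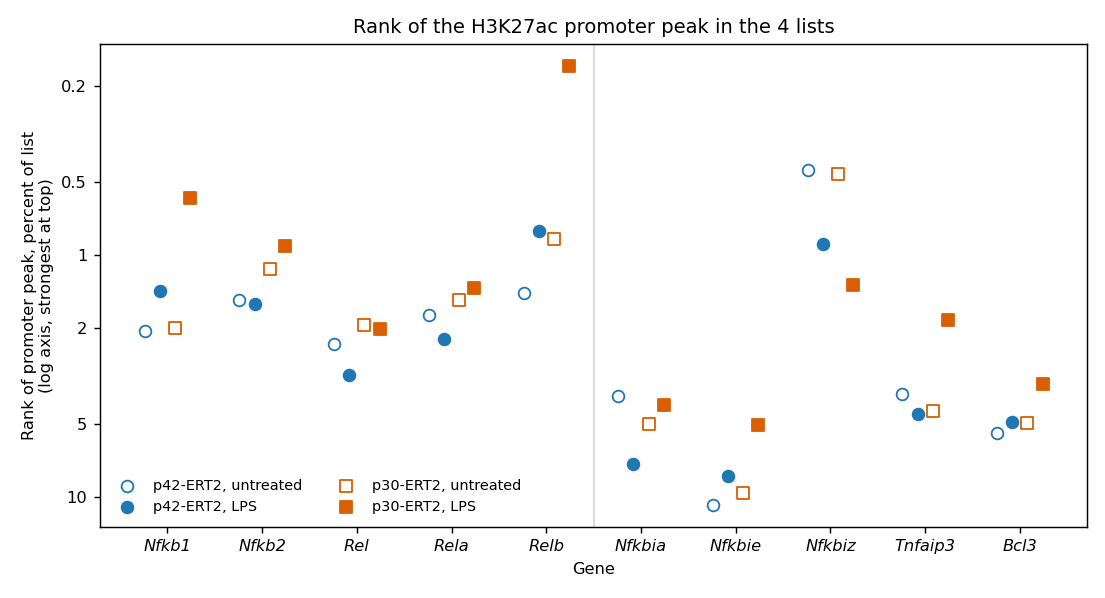
Rank of the best H3K27ac promoter peak as a percentage of its list (vertical log axis, strongest at the top) in p42 (circles) and p30 cells (squares), untreated (open) and with LPS (filled); each point is 1 list. The filled square of *Relb*, p30 cells with LPS, lies highest, at 0.166%.

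Peaks were next joined into regions to see where H3K27ac was present with LPS and not without. The 4 H3K27ac lists merged into 183190 regions, 436 of them in the 10 loci, and 155 of the 436 were present in all 4 lists. No share over the genome is given beside the count of 155. In p42 cells, 47 of the 229 regions of the LPS list were absent untreated (20.5%, 15.8 to 26.2), against 18.7% over the genome. In p30 cells, 126 of 342 were (36.8%, 31.9 to 42.1), against 29.2%. Regions lost with LPS numbered 66 of the 248 of the untreated list in p42 cells (26.6%, 21.5 to 32.4), against 37.9% over the genome, and 52 of 268 in p30 cells (19.4%, 15.1 to 24.6), against 29.3%. Over the genome, too, p30 cells had more gained regions than p42 cells, 34964 and 15606. *Tnfaip3* had 4 gained and 1 lost in p42 cells and 17 and 2 in p30 cells. *Nfkbia* had 2 and 1 in p42 cells and 13 and 3 in p30 cells, and *Bcl3* had 3 and 1 and then 13 and 0. *Nfkbiz* had 11 and 6 in p42 and 22 and 7 in p30 cells. Of the subunit genes, *Nfkb1* had 11 and 11 in p42 and 26 and 15 in p30 cells, and *Rela* had 0 and 12 and then 7 and 7. *Rel* lost more than it gained in p42 cells, 13 and 5, and had 9 gained and 8 lost in p30 cells.

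Of the 47 regions gained in p42 cells, 18 were gained in p30 cells too (38.3%, 25.8 to 52.6), against 19.4% of all regions gained in p42 cells. They lay in the loci of *Nfkb1* (6), *Nfkbiz* (4), *Tnfaip3* (3), *Rel* (2), *Nfkb2* (1), *Nfkbie* (1) and *Bcl3* (1). *Nfkbia*, *Rela* and *Relb* had none. A region gained in both lines was found in 22.9% of all loci and in 7 of 10 here, and loci differ in length.

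The best-ranked of these regions at each gene were weak peaks. The one in *Rel*, an intronic stretch of 282 bp with its summit 17154 bp downstream of the start, ranked at 29.9% of the p42 list and 42.2% of the p30 list. The one in *Nfkb1* was intronic, 19283 bp downstream of the start, and ranked at 37.1% and 36.7%. The *Nfkbiz* region lay upstream, at -27569 bp from the canonical start, and ranked at 41.2% and 30.3%. In *Tnfaip3* it lay in a UTR, 14024 bp downstream of the start, and ranked at 44.9% and 53.0%. The *Bcl3* region lay at -6260 bp and ranked at 56.5% and 39.5%. At *Nfkbie* and *Nfkb2* the regions were nearest to other genes, *Aars2* and *Cuedc2*, and ranked at 62.6% and 95.7% in p42 cells and at 75.8% and 69.5% in p30 cells.

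For the genes without a shared gain, the best-ranked gain of a single line is given. At *Nfkbia* it lay at 34493 bp from the start in p42 cells and at -13662 bp in p30 cells. The first overlapped a p30 peak without LPS, and the second a p42 peak with and without LPS. At *Relb* it lay at -17963 bp in p42 cells, nearest to *Clptm1*, and at -43512 bp in p30 cells, nearest to *Apoc2*, where p42 cells had a peak without LPS. At *Rela* there was a gain in p30 cells only, 38922 bp downstream and nearest to *Pcnx3*, and 0 in p42 cells.

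Of the 18 regions, 8 had H3K4me1 in an untreated list (44.4%, 24.6 to 66.3), against 45% of all regions gained in both lines. None of the 18 overlapped a CEBPA site of any list (interval 0 to 17.6%), against 5.47% of all regions gained in both lines. No CEBPA sample was labelled as given LPS. Among all 436 member regions 49 did (11.2%, 8.61 to 14.5), against 10.8% of the 183190.

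The NF-kB consensus was present within 1000 bp around the summit in 25 of the 155 regions gained in either line (16.1%, 11.2 to 22.7), against 10.9% over the genome. In the 436 member regions of every kind it was present in 65 (14.9%, 11.9 to 18.6), against 9.78% of all. In the 18 regions gained in both lines it was found in 2 (11.1%, 3.10 to 32.8), against 16.3%. The 2 regions were those of *Rel* and *Nfkbie*. The stretch of the *Rel* intron is shown, since this was the best-ranked shared gain of a subunit gene in the p42 list. In the p30 list, *Nfkb1* regions at 36.7% and 39.5% ranked better. The stretch lies outside the called peak, within the searched window, and the capitals hold a pair of overlapping matches.
*Rel* intron, chr11:23704397-23704446, plus strand: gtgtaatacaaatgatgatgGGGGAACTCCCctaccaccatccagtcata

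H3K4me1 was measured without LPS. It covered more in p30 than in p42 cells at 8 of 10 loci, against 76% of all loci, and the p30 list was the longer. With lists of equal length the count was 6 of 10, against 63.9% of all loci, and *Rela* and *Relb* were no longer among them. In the whole lists the 2 exceptions were inhibitor genes. *Nfkbia* had 29588 bp in p42 and 26472 bp in p30 cells, and *Nfkbiz* had 30342 bp and 22416 bp, a ratio of 0.739 that was lower than at all but 9.13% of loci. *Tnfaip3* lay on the other side, with 20148 bp in p42 and 35989 bp in p30 cells. *Nfkb1* had 44687 and 60712 bp, *Nfkbie* 23558 and 35879 bp, *Bcl3* 10491 and 15845 bp, *Rel* 10770 and 14458 bp and *Nfkb2* 17558 and 19546 bp. *Relb* had 10730 and 11999 bp and *Rela* 12481 and 12573 bp. At the canonical promoter, 6 genes had an H3K4me1 peak in both lines, namely *Nfkb1*, *Nfkb2*, *Nfkbie*, *Nfkbiz*, *Tnfaip3* and *Bcl3*, with ranks from 7.84% (*Tnfaip3*, p30) to 94.0% (*Bcl3*, p30). *Nfkbia* had one in p30 cells only, at 36.9%, and *Rel*, *Rela* and *Relb* had none. No share over all genes is given beside these promoter counts, so they describe these genes only.

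**Figure D4:**
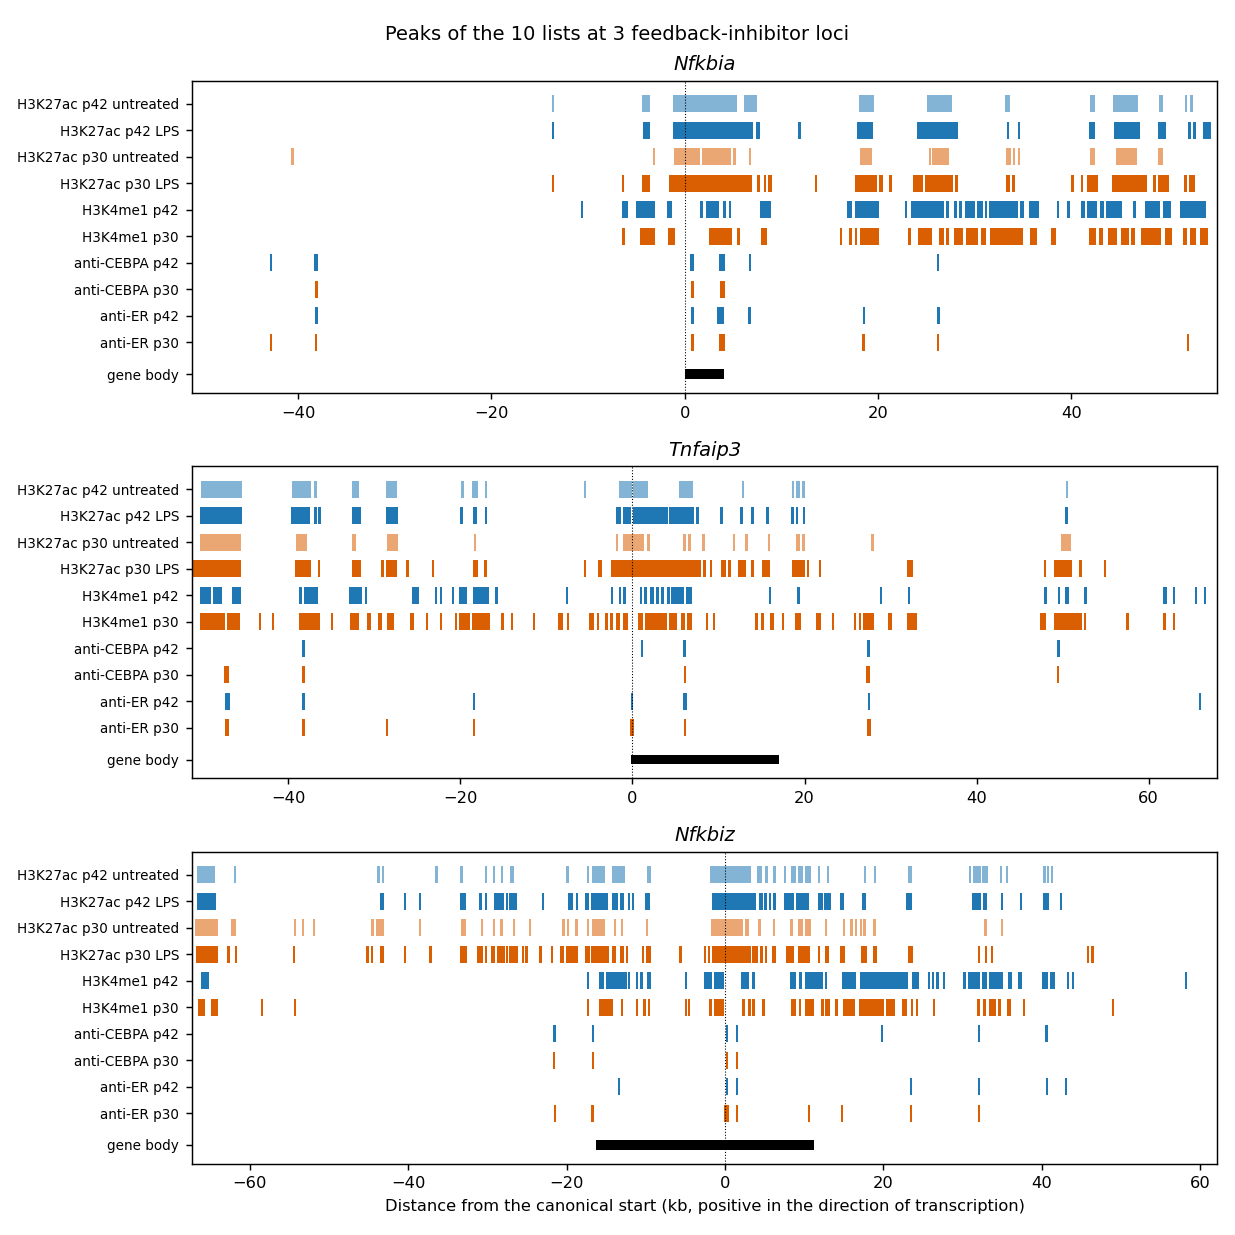
Peaks of the 10 lists (rows; bars run from the start to the end of a peak, widened to at least 0.25 kb) by distance in kb from the canonical start of *Nfkbia*, *Tnfaip3* and *Nfkbiz*, with p42 in blue, p30 in orange and the gene body in black; paler rows are untreated H3K27ac. At *Nfkbia* and *Tnfaip3* the promoter bar of p30 cells with LPS, 8620 and 10423 bp, is longer than the one without.

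CEBPA sites were examined with both antibodies. In the 10 loci, anti-CEBPA gave 46 sites in p42 and 35 in p30 cells, and anti-ER gave 42 and 54. Merged, these were 76 sites, of which 21 were in all 4 lists, 28 in a single list, 16 only in lists of p42 and 19 only in lists of p30. No share over all merged sites is given beside the merged counts, so they describe these loci only. Of the 76, 52 had their summit in an H3K27ac peak and 36 in an H3K4me1 peak. By list, 60.9% (46.5 to 73.6) of the p42 anti-CEBPA sites lay in H3K27ac, against 22.5% of the whole list, and 62.9% (46.3 to 76.8) of the p30 sites, against 27.5%. For H3K4me1 the shares were 45.7% (32.2 to 59.8), against 15.9%, and 40.0% (25.6 to 56.4), against 17.6%. The members were all genes with H3K27ac at their promoters, and the whole lists were not restricted to loci of such genes. *Nfkb1* had the most merged sites with 16, followed by *Nfkbiz* with 12 and *Tnfaip3* with 10, and *Nfkb2* had the fewest with 3. The *Nfkb1* locus was also the longest, 207 kb, against 128 kb at *Nfkbiz* and 117 kb at *Tnfaip3*. Of its 16 sites, 7 were in a single list.

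Sharing between the lines was set beside that of the whole lists. Of the p42 anti-CEBPA sites, 65.2% (50.8 to 77.3) had a p30 site, against 55.3% of the list. Of the p30 sites, 85.7% (70.6 to 93.7) had a p42 site, against 82.5%. With anti-ER the shares were 73.8% (58.9 to 84.7) of the p42 sites, against 84.1%, and 57.4% (44.2 to 69.7) of the p30 sites, against 57%. Each of these background shares lay inside the interval of the members. The intervals were wide, so this does not show that the shares were alike.

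The CEBP motif lay within 200 bp around the summit in 58.7% (44.3 to 71.7) of the p42 anti-CEBPA sites, against 50.7% of the list, and in 54.3% (38.2 to 69.5) of the p30 sites, against 53%. Of the 21 sites in all 4 lists, 14 held it, with no share over all such sites to set beside this.

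Most sites lay away from the promoters of the members. A site at a promoter of its own gene was called with anti-CEBPA for 1 member in p42 cells (*Nfkbiz*), against 8.99% of all genes. In p30 cells there were 2 (*Nfkbie* and *Nfkbiz*), against 8.46%. With anti-ER there was 1 in p42 cells (*Tnfaip3*), against 7.88%, and 2 in p30 cells (*Nfkbiz* and *Tnfaip3*), against 12.8%. A site counted when its peak overlapped the promoter window. Merged across lists, the *Nfkbiz* site near the canonical start, with its best summit 282 bp downstream, was present in all 4 lists, and whether the edge of its peak reached the window set the count. The p42 anti-CEBPA count came from another site, at -16684 bp, by an upstream start. No promoter of a subunit gene held a site in any of the 4 lists. Over the 76 sites, 12 summits lay in a promoter of any protein-coding gene, 5 in a UTR, 2 in another exon, 25 in introns and 32 in intergenic sequence.

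**Figure D5:**
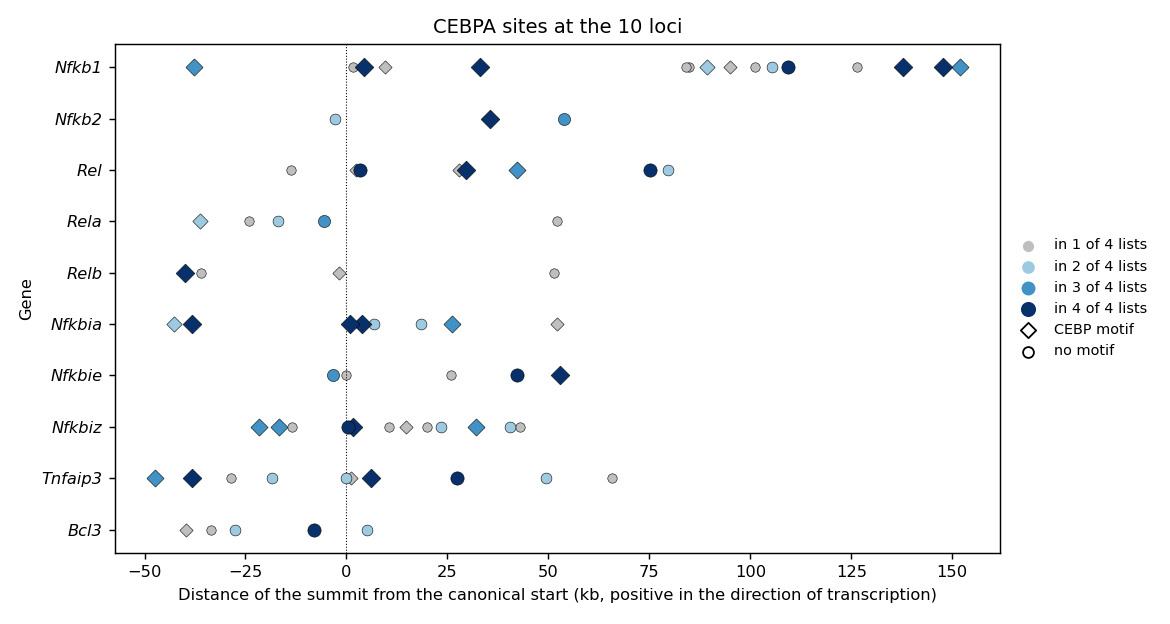
Distance in kb of CEBPA summits from the canonical start of each gene (horizontal axis); colour gives the number of the 4 CEBPA lists that hold the site, and diamonds have the CEBP motif. *Nfkb1*, the longest locus, has the most sites, 16, and a site in all 4 lists lies 4254 bp downstream of its start.

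By the better of their anti-CEBPA ranks, the strongest sites in all 4 lists lay in the loci of inhibitor genes and *Nfkb1*. A selection is shown on the plus strand of mm39, as 101 bp around the summit, with the CEBP motif in capitals, taking the best-ranked site of each of these genes except *Bcl3* and a further one inside *Nfkbia*.
*Nfkb1* intron, chr3:135393438-135393538: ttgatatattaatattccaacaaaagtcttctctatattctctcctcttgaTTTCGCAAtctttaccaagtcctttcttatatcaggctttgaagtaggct
*Tnfaip3* upstream, chr10:18929373-18929473: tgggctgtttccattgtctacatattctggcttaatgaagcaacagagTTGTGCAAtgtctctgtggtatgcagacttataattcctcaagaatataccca
*Nfkbie* downstream, chr17:45919486-45919586: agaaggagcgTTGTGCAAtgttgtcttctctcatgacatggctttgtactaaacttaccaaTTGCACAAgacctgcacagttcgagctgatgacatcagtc
*Nfkbia* intron near the start, chr12:55538603-55538703: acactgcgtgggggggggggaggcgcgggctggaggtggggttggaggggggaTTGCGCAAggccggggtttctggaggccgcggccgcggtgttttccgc
*Nfkbia* distal intron, chr12:55535652-55535752: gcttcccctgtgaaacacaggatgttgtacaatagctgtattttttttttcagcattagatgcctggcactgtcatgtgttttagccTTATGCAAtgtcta
*Nfkbiz* intron, chr16:55641363-55641463: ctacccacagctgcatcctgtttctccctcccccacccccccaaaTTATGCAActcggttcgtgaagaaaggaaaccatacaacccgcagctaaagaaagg

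The *Nfkb1* site, 4254 bp downstream of the start, ranked at 1.36% (p42) and 2.00% (p30) with anti-CEBPA and at 2.93% and 1.82% with anti-ER. The site upstream of *Tnfaip3*, at -38237 bp, ranked at 2.12% and 5.00% with anti-CEBPA and at 3.60% and 4.11% with anti-ER. These were strong in both lines with both antibodies. The site 52930 bp downstream of the *Nfkbie* start was nearest to another gene, *Mymx*. It ranked at 1.37% in p42 and 7.80% in p30 cells with anti-CEBPA and at 1.55% and 5.35% with anti-ER, better in p42 cells with both.

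Among the inhibitor genes, *Nfkbia* and *Nfkbiz* had an intronic site that ranked better in p30 cells with both antibodies. The *Nfkbia* site 779 bp downstream of the start, with the palindromic motif, ranked at 14.5% in p42 and 3.68% in p30 cells with anti-CEBPA and at 40.5% and 19.7% with anti-ER. The *Nfkbiz* site 1506 bp downstream ranked at 24.0% and 6.24%, and at 22.4% and 5.99%. Each rests on 1 library per list. The other *Nfkbia* site, 3730 bp downstream in an intron of the longest transcript, ranked better in p42 cells with anti-CEBPA (7.57% and 22.8%) and better in p30 cells with anti-ER (8.22% and 4.92%), so the antibodies gave opposite orders.

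Further sites in all 4 lists lay in the same loci. In that of *Nfkb1*, another strong site lay past the end of the gene, in an intron of another gene, at 137900 bp from the start. It ranked at 6.03% and 7.01% with anti-CEBPA and at 3.28% and 2.22% with anti-ER. Its summit was inside an H3K27ac peak in the untreated lists. In the LPS lists it lay just outside one, as the peaks there began at 137902 bp (p42) and 137972 bp (p30). The summit of the site at 4254 bp was inside an H3K27ac peak only in p30 cells with LPS, and in H3K4me1 in both lines. In the other H3K27ac lists it lay in a short gap between peaks. The gap ran from 4111 to 4431 bp in untreated and 4166 to 4327 bp in LPS-treated p42 cells. In untreated p30 cells it ran from 4226 to 4443 bp. The *Tnfaip3* intron had a site at 6134 bp that was weak with anti-CEBPA (60.2% and 97.7%), in H3K27ac in the 4 lists. The *Nfkbia* site at 779 bp and the *Nfkbiz* site at 1506 bp were also in H3K27ac in the 4 lists, and in H3K4me1 in none.

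The best anti-CEBPA sites of the remaining genes ranked lower. They lay at -5594 bp from *Rela* (13.0% in p42 cells), 75236 bp downstream of the *Rel* start and nearest to *Pus10* (13.0%), 35611 bp downstream of the *Nfkb2* start at the promoter of *Cuedc2* (10.3% in p30 cells), and at -8071 bp from *Bcl3* (24.4% in p30 cells). At *Relb* the best site ranked at 63.4% in p42 cells and was in no other list.

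The loci whose covered lengths were most like those of *Nfkbia* were *Saal1*, *Akap7*, *Rsad2*, *Blmh* and *Dusp16*. Likeness was the root mean square difference in the percentile of covered length over the 10 lists, among genes on other chromosomes or over 1 Mb away, and was 3.94 to 4.64 percentile points. The lists share libraries' depth and the loci differ in length, so this is a description.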

How the data were processed

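ChIP-seq peak lists of mouse HPC-7 cells were analysed, and the list of human KO-52 cells was not used here. By the labels and the published methods, the authors trimmed reads (Trim Galore 0.6.6 in the submitters' processing notes), aligned them to mm39 with Bowtie2, excluded duplicates with Picard and used MACS2, with input as control, to call narrow peaks. H3K27ac (n = 3) and H3K4me1 (n = 2) were called on pooled replicates, the CEBPA lists on 1 library each. The names of the anti-CEBPA lists, unlike the others, do not state that the fragment model of MACS2 was turned off, and whether settings differed was not tested. The deposited lists give, per peak, the authors' fold enrichment at the summit and the −log10 of a p-value and of a q-value. They were used to rank, filter or describe peaks within a list. Values of different lists given side by side, as the *Relb* folds, were not scaled to each other.

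Covered length was the sum of peak widths with a summit in the locus. Regions were merged H3K27ac peaks with an overlap of at least 1 bp, present in a list where it had a peak, and gained when present with LPS and absent untreated. Motifs were searched on both strands of GRCm39: TTGCNNAA, TGANTCA and the NF-kB consensus. Named items were, for each member, the lists' values, the promoter peak, the best-ranked gained region and the best-ranked anti-CEBPA site. The members and gene lists were chosen with earlier results of these data known. The sequences shown beyond the best-ranked sites were chosen after their values were seen. The study states a range of reads per sample, but not the depth behind each list, and no test was possible. Alternatives were a q-value under 1e-05, the same number of best peaks from each list, 20 kb flanks, nearest starts, ranks by fold, promoters within 2500 bp, 50% overlap and other motif windows. Steps were tested on simulated data and recovered the planted peaks. Python 3.11.15 with numpy 2.4.6, pandas 2.3.3 and scipy 1.17.1 was used.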

Additional observations from a re-analysis of the deposited data

Results flagged for a closer look

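As reported, the lines differed in direction with LPS in 6 values, and these differences were not tested, since each is a difference between single lists. The H3K27ac-covered length of *Nfkb2* changed by -3736 bp in p42 and by 2979 bp in p30 cells, and that of *Rel* by -4088 bp and 856 bp. The rank of the promoter H3K27ac peak, as a percentage of its list, changed by 0.06 percentage points in p42 and -0.23 in p30 cells at *Nfkb2*, and by 0.45 and -0.17 at *Rela*. At *Nfkbia* it changed by 3.48 and -0.85, and at *Tnfaip3* by 0.78 and -2.56. With lists of equal length, the *Nfkb2* and *Tnfaip3* ranks were better with LPS in both lines, so the 0.06 and 0.78 come from the shorter p42 LPS list. With 20 kb flanks, the *Nfkb2* length was longer with LPS in both lines.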

How the results depend on the processing

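Of 70 values under alternative settings for 15 results, 62 stayed within 1.5 times the reported count or inside the reported interval, and 8 moved. The share of regions of the p42 LPS list that were absent untreated was 26.5% with lists cut to equal numbers of best peaks, 26.5% with nearest starts only and 38.96% when a peak had to cover 50% of the region. In p30 cells it was 45.0% and 57.0% under the latter settings. The NF-kB consensus was in 2.58% of gained regions in a window of 200 bp around the summit, for which no share over the genome is given. The CEBP motif was in 76.1% of p42 anti-CEBPA sites in a window of 1000 bp around the summit. Wider windows hold more matches by construction. With equal numbers, 72.5% of p30 anti-ER sites had a p42 site. The same 6 genes were longer with LPS in p42 cells under each of 4 alternatives, with *Nfkb2* added at 20 kb flanks. The share of all loci was 16.6% as reported and 19.7% to 24.7% under these alternatives, 23.6% of them with lists of equal length. Promoter ranks better with LPS in p42 cells went from 4 to 6 of 10 with equal list lengths, while the share of all genes went from 23.5% to 48.9%. No paired analysis was possible because replicates were pooled before peaks were called, and no replicate could be left out for the same reason. The depth behind each list is not given in the sources used here, so weak peaks, on which gained regions rest, cannot be judged against it.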
